A study of Mus musculus with 11 samples.

Results

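The miR-199/miR-214 and miR-143/miR-145 miRNAs are used as marks of the cells that wrap and support blood vessels and of fibroblasts. Of 1907 mature miRNA names counted in every library, 7 were chosen here by name, with earlier results of these data known, namely mmu-miR-199a-3p, mmu-miR-199a-5p, mmu-miR-214-3p, mmu-miR-214-5p, mmu-miR-143-3p, mmu-miR-145a-5p and mmu-miR-145a-3p (mmu for mouse, left out from here on). The rule itself uses the names and no measured value. The 11 small RNA libraries come from male Balb/cOlaHsd mice, labelled as 3 months old, at 3 days after surgery. For 5 of them the left middle cerebral artery was closed for good by heat coagulation (pMCAO), a stroke model without reperfusion, and the label gives the tissue as peri-ischemic cortex, the cortex around the lesion. For the other 6, the sham libraries, the artery was exposed and lifted but not closed, and the label gives cortex. The deposited names of the counts mark both groups as vehicle, and the study's methods name no vehicle for these mice. The brains of both groups were perfused, and each library is from a whole piece of tissue, so that a change in the number of cells of a type and a change in RNA per cell cannot be told apart.

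Vascular smooth muscle cells and pericytes, together called mural cells, wrap arteries and capillaries, and fibroblasts sit in the meninges and around larger vessels. The miR-143/miR-145 genes form one cluster that holds smooth muscle cells in their contractile state. The Mir199a-2 and Mir214 genes, but not Mir199a-1, are read as one long non-coding RNA, Dnm3os, in mesenchymal cells. The miRNAs miR-199a and miR-214 are known from fibroblast activation and scar tissue. In the brain these cells maintain the vessel wall, and after an ischemic lesion pericytes and fibroblasts take part in the scar.

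The sequences of the 4 miR-199/miR-214 members and of miR-199b-3p are given because 2 of the entries counted separately cannot be separated by sequence. Capitals mark the seed, bases 2 to 8 from the 5′ end, with which a miRNA finds its targets. All are mature sequences of RefSeq on GRCm38.p6, the assembly also called mm10.
miR-199a-5p: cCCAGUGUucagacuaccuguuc
miR-199a-3p: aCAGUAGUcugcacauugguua
miR-199b-3p: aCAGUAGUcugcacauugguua
miR-214-5p: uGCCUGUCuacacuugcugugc
miR-214-3p: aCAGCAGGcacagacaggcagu
The 4 members carry 4 different seeds. The seed of miR-199a-3p is shared with miR-199b-3p, and the whole sequence as well, so a read of this sequence could come from any of 3 hairpins. The seed of miR-214-3p is shared with miR-761, which had 0 counts in every library.

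In the GENCODE annotation of the same build, each of the 4 hairpins lies antisense within a dynamin gene, which codes for a membrane-pinching GTPase. Mir199a-2 is on the plus strand of chromosome 1 from 162217814 to 162217923 and Mir214 from 162223368 to 162223477, with 5444 bases between them. Both lie in an exon of Dnm3os and, on the opposite strand, in an intron of Dnm3. Mir199a-1 is on the minus strand of chromosome 9 from 21496495 to 21496564, in an intron of Dnm2 on the opposite strand. Mir199b is on the plus strand of chromosome 2 from 32318460 to 32318569, in an intron of Dnm1 on the opposite strand.

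The deposited values are raw counts. Totals ran from 1429037 to 2319810 counts in sham and from 744877 to 1411620 in pMCAO libraries, with no overlap, so that the pMCAO values carry more counting error. Levels are given as CPM, counts scaled to one common library total with TMM factors, and 3 counts, taken as the floor, came to at most 3.54 CPM in any library. Of the raw counts, without TMM factors, 5 neuronal miRNAs (miR-124-3p, miR-9-5p, miR-128-3p, miR-138-5p and miR-137-3p) held 34.8% in sham and 33.2% in pMCAO libraries on average. A pair of libraries stood apart. Sham replicate 1 held 5111 CPM of the erythrocyte miRNA miR-451a, where no other sham library exceeded 252 CPM. pMCAO replicate 2, the smallest library, held 2751 CPM of the myeloid miRNA miR-223-3p, where no other pMCAO library exceeded 1123 CPM.

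The 7 members fell into an abundant and a scarce set. In sham cortex miR-145a-5p was highest at 7118 ± 1388 CPM (SD, n = 6), followed by miR-143-3p at 1166 ± 339 CPM (SD, n = 6), and their ranges did not overlap. Next came miR-145a-3p at 26.0 ± 7.11 CPM, miR-199a-3p at 23.2 ± 8.75 CPM, miR-214-3p at 22.1 ± 11.1 CPM and miR-199a-5p at 22.0 ± 6.98 CPM (SD, n = 6 each), whose ranges overlapped, so that these 4 are not ordered. The lowest was miR-214-5p at 1.59 ± 1.05 CPM (SD, n = 6), near the floor. In pMCAO tissue the order of the middle 4 was miR-214-3p at 71.9 ± 50.6 CPM, miR-199a-3p at 49.2 ± 25.2 CPM, miR-199a-5p at 38.6 ± 12.6 CPM and miR-145a-3p at 25.4 ± 9.74 CPM (SD, n = 5 each), again with overlapping ranges. CPM values are not divided by length, which differs little between mature miRNAs, but the ease of cloning differs between sequences. As shares of raw counts, without TMM factors, the 3 members of miR-143/miR-145 took 0.780% in sham and 0.779% in pMCAO libraries on average. The 4 of miR-199/miR-214 took 0.00644% and 0.0177%. With TMM factors the sum for miR-143/miR-145 was 8311 ± 1700 CPM in sham (SD, n = 6) and 7271 ± 815 CPM in pMCAO tissue (SD, n = 5). For miR-199/miR-214 it was 68.8 ± 24.7 CPM in sham (SD, n = 6) and 163 ± 89.1 CPM in pMCAO tissue (SD, n = 5).

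**Figure D1:**
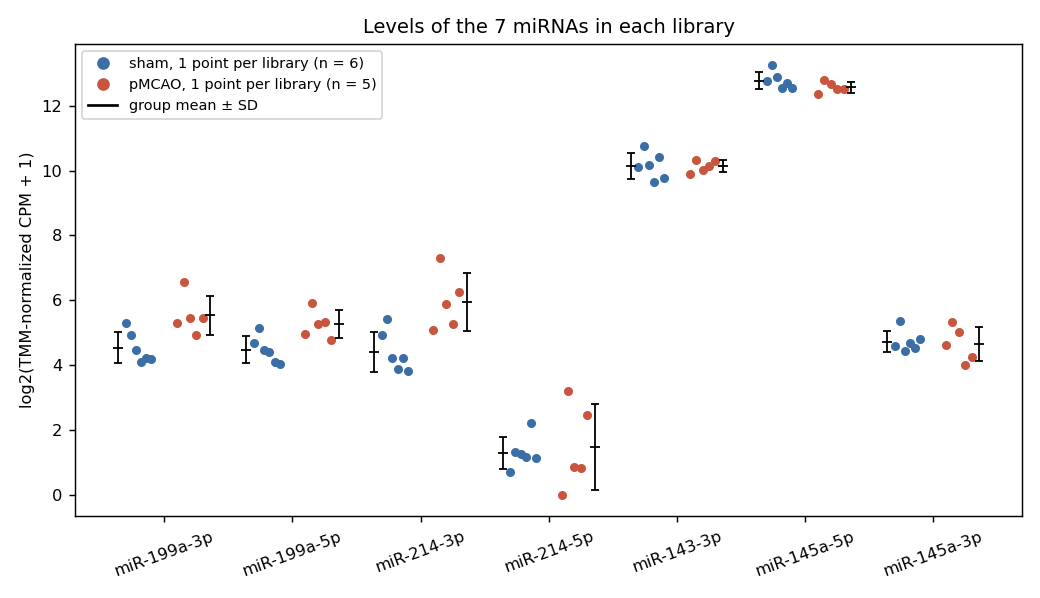
Level of each of the 7 miRNAs as log2(TMM-normalized CPM + 1), with 1 point per library for sham (blue, n = 6) and pMCAO (red, n = 5) and the group mean ± SD in black. For miR-199a-3p, miR-199a-5p and miR-214-3p the pMCAO points lie mostly above the sham points with some overlap, for miR-143-3p all pMCAO points lie within the sham range, and for both arms of miR-145a the groups overlap.

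Which members differed between stroke and sham was tested for all miRNAs at once. One member of the 7, miR-214-3p, was higher in pMCAO past an adjusted p of 0.05, and the 3 members of miR-143/miR-145 were not past it. Among all 479 miRNAs that passed the filter on low counts, the quasi-likelihood test of edgeR, with Benjamini-Hochberg adjustment, called 34, which is 7.1%. Of these, 21 were higher in pMCAO, 4.38% of those tested, and 13 were lower, 2.71%. Of the 7 members, 6 passed the filter and 1 was called, while miR-214-5p was not tested for its low counts. An unadjusted p under 0.05 with a higher level in pMCAO was reached by 3 of the 6, against 12.9% of all tested, and a log2 fold change of at least 1 by 2 of the 6, against 4.59%. The groups overlapped for all 7 members, where 4.18% of the tested miRNAs lay wholly above sham and 3.34% wholly below. The 6 tested members had a median log2 fold change of 0.37, against 0.0015 over all tested miRNAs. The 3 of miR-199/miR-214 had a median of 1.06 and the 3 of miR-143/miR-145 a median of -0.07.

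The level of miR-214-3p, the main arm of its hairpin, was 13.0 CPM in the lowest sham library, 17.6 CPM in the median and 41.4 CPM in the highest. The pMCAO libraries held 32.6, 157, 57.6, 37.1 and 75.0 CPM from replicate 1 to 5. Replicate 2 was the highest, and replicates 1 and 4 lay below sham replicate 2, so the groups overlapped. miR-214-3p rose 3.20-fold (95% interval 1.73 to 5.93), or by 1.68 on the log2 scale (standard error, SE, 0.41, edgeR adjusted p = 0.0296). Among the miRNAs tested its p-value ranked 20 and its fold change 10. On log2(CPM + 1) an exact permutation test over all 462 arrangements of the libraries gave p = 0.0108 (two-sided, unadjusted). DESeq2 (adjusted p = 0.000713) and edgeR without the filter (adjusted p = 0.000579) also called miR-214-3p. The edgeR call depended on the libraries kept. It was lost without sham replicate 3 (edgeR adjusted p = 0.0789), 4 (0.0642) or 6 (0.0577). It was also lost without pMCAO replicate 2 (edgeR adjusted p = 0.0968) or 5 (0.0542). In these fits, in the same order, calls over all miRNAs were 16, 19, 20, 16 and 21, against 34 with all libraries. The log2 fold changes without sham replicate 3, 4 or 6 or pMCAO replicate 5 were 1.63, 1.57, 1.57 and 1.65. Without pMCAO replicate 2 the log2 fold change was 1.19, and without that library and sham replicate 1 it was 1.28 (edgeR adjusted p = 0.0748).

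Of the hairpins that hold miR-199a-3p, Mir199a-2 lies near Mir214 and Mir199a-1 lies on chromosome 9. For miR-199a-3p the lowest sham library was at 16.0 CPM, the median at 19.3 CPM and the highest, sham replicate 1, at 38.0 CPM. The pMCAO libraries were at 38.2, 93.3, 42.4, 29.6 and 42.7 CPM from replicate 1 to 5. In 4 of these 5 the level was above every sham library, and replicate 4 lay below sham replicate 1 only. The log2 fold change was 1.06 (SE 0.31), a fold of 2.09 with a 95% interval of 1.31 to 3.33. With an adjusted p of 0.0547 from edgeR it missed the threshold, at rank 39 by p-value. The exact permutation test gave p = 0.00866 (two-sided, unadjusted). Without sham replicate 1 the log2 fold change was 1.26 and without pMCAO replicate 4 it was 1.21, and both then passed the threshold (edgeR adjusted p = 0.0258 and 0.0351). Without any one of the other 9 libraries it stayed short of the threshold, and without pMCAO replicate 2 it was 0.71 (edgeR adjusted p = 0.186). With sham replicate 1 and pMCAO replicate 2 both left out it was 0.90, also past the threshold (edgeR adjusted p = 0.0440). DESeq2, the tool named in the methods, also called it (adjusted p = 0.0207).

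The 5p arm, miR-199a-5p, was between 15.4 and 34.4 CPM in sham libraries, with a median of 20.7 CPM. In pMCAO libraries it was at 30.3, 59.1, 37.6, 39.4 and 26.5 CPM from replicate 1 to 5. Replicates 2, 3 and 4 were above every sham library, and replicates 1 and 5 were below sham replicate 2. The log2 fold change of 0.79 (SE 0.26) had an adjusted p of 0.0853 from edgeR and did not pass the threshold. It did pass without sham replicate 2 (log2 fold change 0.98, edgeR adjusted p = 0.0380), and without pMCAO replicate 2 the log2 fold change was 0.59 (edgeR adjusted p = 0.249). The exact permutation test gave p = 0.0173 (two-sided, unadjusted).

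The 5p arm of Mir214, miR-214-5p, was counted between 1 and 5 times per sham library. The pMCAO libraries held 0, 7, 1, 1 and 7 counts from replicate 1 to 5. Its highest level, in pMCAO replicate 2, was 8.27 CPM, with an exact 95% Poisson interval of 3.32 to 17.0 CPM that covers counting error only. A difference between the groups was not detectable at this depth.

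Counting error was a smaller part of the spread for some scarce members than for others. For miR-214-5p in sham, the SD of 1.05 CPM was close to the 1.02 CPM that counting gives. Between sham libraries miR-199a-3p had an SD of 8.75 CPM, where counting alone gives 3.78 CPM, and miR-214-3p one of 11.1 CPM, where counting gives 3.65 CPM. Between pMCAO libraries the SDs were 25.2 CPM for miR-199a-3p and 50.6 CPM for miR-214-3p, where counting gives 6.89 and 8.31 CPM.

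The reads of the miR-199a-3p sequence were split in the tables between miR-199a-3p and miR-199b-3p. The share given to miR-199b-3p was between 33.3% and 50.0% in sham and between 36.9% and 48.4% in pMCAO libraries, with medians of 47.5% and 46.0%. For miR-199b-3p alone the log2 fold change was 1.01 (SE 0.37, edgeR adjusted p = 0.120). The CPM of both entries added up to 43.2 ± 17.0 CPM in sham (SD, n = 6) and 90.6 ± 51.1 CPM in pMCAO tissue (SD, n = 5). With their counts summed before the fit, the log2 fold change was 1.05 (SE 0.33, edgeR adjusted p = 0.0696), not past the threshold. The 5p arm of Mir199b has a name and sequence of its own, and miR-199b-5p was at 68.4 ± 16.5 CPM in sham (SD, n = 6) and 90.1 ± 36.6 CPM in pMCAO tissue (SD, n = 5). Its log2 fold change was 0.39 (SE 0.25, edgeR adjusted p = 0.413). Of the 4 entries related to the members, miR-199b-3p, miR-199b-5p, miR-143-5p and miR-145b, 3 passed the filter and 0 were called by edgeR, with 1 at an unadjusted p under 0.05 and 0 called by DESeq2.

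The smooth muscle miRNA miR-143-3p was between 795 and 1712 CPM in sham libraries with a median of 1128 CPM. In pMCAO libraries it was at 960, 1270, 1043, 1130 and 1257 CPM from replicate 1 to 5, all within the sham range. The log2 fold change was -0.04 (SE 0.18), a fold of 0.970 with a 95% interval of 0.741 to 1.27 (edgeR adjusted p = 0.959). It was counted at least 854 times in every library, so counting error is small here, and the interval is set by the spread between libraries.

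Its cluster partner miR-145a-5p was between 5946 and 9686 CPM in sham libraries with a median of 6789 CPM. The pMCAO libraries were at 5298, 7167, 6491, 5800 and 5813 CPM from replicate 1 to 5. Replicates 1, 4 and 5 were below every sham library, and replicates 2 and 3 lay within the sham range. The log2 fold change was -0.22 (SE 0.13), a fold of 0.859 with a 95% interval of 0.703 to 1.05 (edgeR adjusted p = 0.374). The scarce arm, miR-145a-3p, was between 20.5 and 39.9 CPM in sham and between 15.2 and 39.0 CPM in pMCAO libraries. Its log2 fold change was -0.07 (SE 0.26), and the 95% interval of the fold ran from 0.645 to 1.42 (edgeR adjusted p = 0.955). No member of miR-143/miR-145 was called by edgeR or DESeq2 (0 of 3 by each), and 0 of 3 had an unadjusted p under 0.05. With total counts as the scaling, under which the median over all miRNAs was 0.18, the values of miR-143-3p and miR-145a-3p turned to 0.15 and 0.12, so that no direction is given for them.

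**Figure D2:**
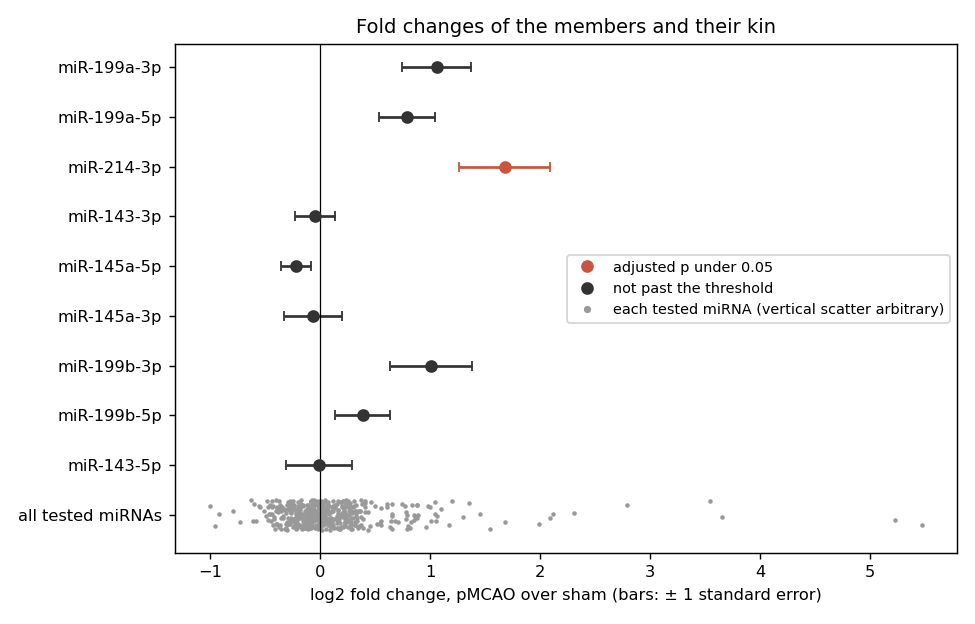
Log2 fold change of pMCAO over sham from edgeR with bars of 1 standard error, for the 6 tested members and their 3 tested relatives, above the values of all 479 tested miRNAs (grey). miR-214-3p (red) is past the threshold, the miR-199 entries lie between 0.39 and 1.06, and the miR-143/miR-145 entries lie within 0.22 of 0.

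A ratio of counts within a library does not depend on the scaling between libraries, so the members were also set against each other. In all, 8 ratios were compared by exact permutation tests with Benjamini-Hochberg adjustment over the 8, and 0 passed an adjusted p of 0.05, with 4 at an unadjusted p under 0.05. The ratio of miR-199a-3p to miR-143-3p was between 0.0130 and 0.0349 in sham libraries with a median of 0.0194. In pMCAO libraries it was 0.0404, 0.0739, 0.0410, 0.0265 and 0.0342 from replicate 1 to 5. Sham replicate 1 was above pMCAO replicates 4 and 5, and the other sham libraries were below all pMCAO libraries. The difference was 1.04 on the log2 scale (SE 0.31, exact permutation p = 0.00866, adjusted p = 0.0519). Without sham replicate 1 it was 1.20 and passed the threshold (exact permutation test, adjusted p = 0.0317).

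The same member was set against miR-126a-3p, the most common endothelial miRNA. For that ratio the difference was 1.08 on the log2 scale (SE 0.32, exact permutation p = 0.0130, adjusted p = 0.0519), and 1.28 higher without sham replicate 1 (exact permutation test, adjusted p = 0.0317). The ratio of miR-143-3p to miR-126a-3p had medians of 0.167 in sham and 0.164 in pMCAO libraries, with a difference of 0.048 on the log2 scale (SE 0.18, exact permutation p = 0.805, adjusted p = 0.805).

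Within miR-199/miR-214, the ratio of miR-214-3p to miR-199a-3p had a median of 0.845 in sham and 1.36 in pMCAO libraries. It was 0.855, 1.68, 1.36, 1.25 and 1.75 in pMCAO replicates 1 to 5 and at most 1.40 in sham. The difference of 0.55 on the log2 scale (SE 0.23) did not pass after adjustment (exact permutation p = 0.0455, adjusted p = 0.0909). The ratio of miR-214-5p to miR-214-3p differed by -1.35 on the log2 scale (SE 0.57, exact permutation p = 0.0455, adjusted p = 0.0909), but rests on 0 to 7 counts of the 5p arm. For miR-199a-5p to miR-199a-3p the difference was -0.23 (SE 0.24), for miR-143-3p to miR-145a-5p 0.20 (0.12) and for miR-145a-3p to miR-145a-5p 0.13 (0.23), with adjusted p of 0.427, 0.190 and 0.616 from the exact permutation tests. Ratios with miR-199a-3p depend on how its reads were split with miR-199b-3p. With both entries summed, miR-199a-5p to this sum differed by -0.21 and miR-214-3p to it by 0.57 (exact permutation tests, adjusted p = 0.545 and 0.108). The sum to miR-143-3p differed by 1.01 and to miR-126a-3p by 1.06 (exact permutation tests, adjusted p = 0.0606 for each).

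**Figure D3:**
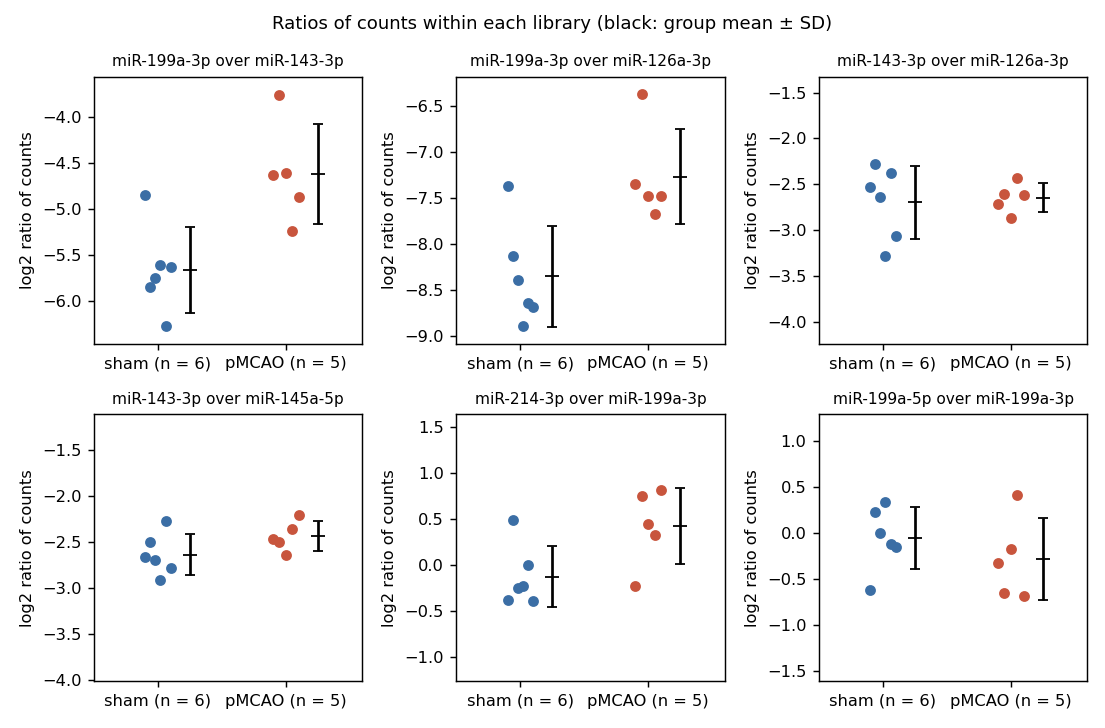
Log2 ratio of counts within each library for 6 of the 8 ratios, with 1 point per library and the group mean ± SD in black; all panels span the same height. The ratios of miR-199a-3p to miR-143-3p and to miR-126a-3p lie above the sham points in pMCAO apart from sham replicate 1, whose point lies among the pMCAO points, while miR-143-3p to miR-126a-3p stays in 1 range.

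Whether members vary together was examined within the 6 sham libraries, for 4 pairs. Pearson's r was 0.86 between miR-199a-3p and miR-214-3p (exact permutation p = 0.0361, adjusted over the 4 pairs 0.0722), with Spearman's rho of 0.89 (exact permutation p = 0.0333, adjusted 0.133). It was 0.87 between miR-143-3p and miR-145a-5p (exact permutation p = 0.0194, adjusted 0.0722), with rho of 0.77 (exact permutation p = 0.103, adjusted 0.137). Across the clusters, miR-199a-3p and miR-143-3p gave an r of 0.48 (exact permutation p = 0.322, adjusted 0.322) and a rho of 0.60 (exact permutation p = 0.242, adjusted 0.242). The arms of miR-199a gave an r of 0.74 (exact permutation p = 0.111, adjusted 0.148) and a rho of 0.77 (exact permutation p = 0.103, adjusted 0.137). Without the 2 libraries farthest from the median of the first miRNA, the values of r were 0.72, 0.58, 0.53 and 0.40 over 4 libraries. With total counts as the scaling these were 0.43, 0.21, 0.34 and -0.11, so that for the arms of miR-199a the sign turned. None of these 4 pairs passed after adjustment by either measure.

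To find miRNAs of like pattern, deviations from the group mean were compared over all 11 libraries, as a description with shared depth and scaling. The tested miRNAs most like miR-199a-3p were miR-214-3p, with an r of 0.89, then miR-199b-3p with 0.89, miR-142a-5p with 0.87, miR-142a-3p with 0.84 and miR-146a-5p with 0.84. As miR-199b-3p has the same sequence, its r depends on how those reads were split and is not separate evidence. The median over all others was 0.022. Without sham replicate 1 and pMCAO replicate 2 these values of r were 0.87, 0.67, 0.64, 0.63 and 0.75. The miR-142a arms are miRNAs of blood-derived cells, and miR-146a-5p is induced by inflammatory signals. The tested miRNAs most like miR-143-3p were miR-466d-3p with an r of 0.90, miR-145a-5p with 0.80, miR-488-3p with 0.78, miR-434-3p with 0.76 and miR-30a-5p with 0.75, against a median of -0.051. Without sham replicates 2 and 4 they were 0.88, 0.54, 0.60, 0.76 and 0.64.

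Myeloid miRNAs moved in the same libraries. All 4 of that list (miR-223-3p, miR-142a-3p, miR-142a-5p and miR-155-5p) were higher in pMCAO past the threshold, with a median log2 fold change of 1.93, and their summed level was between 279 and 697 CPM in sham and between 751 and 3759 CPM in pMCAO libraries. The highest sum was in pMCAO replicate 2, which was also highest in miR-199a-3p, miR-199a-5p and miR-214-3p, and among sham libraries it was in replicate 1. That sham library was the highest in miR-199a-3p but not in miR-214-3p or miR-199a-5p, for which sham replicate 2 was. Their part in the higher miR-214-3p was not tested. No marker of any list was at 0 in every library. The summed erythrocyte list (miR-451a, miR-144-3p, miR-486a-5p and miR-486b-5p) was between 48.6 and 5327 CPM in sham, the highest in replicate 1, and between 637 and 4697 CPM in pMCAO libraries, the highest in replicate 3. Of its 2 tested members 0 were called by edgeR, with 0 at an unadjusted edgeR p under 0.05 and 0 by DESeq2. On log2(CPM + 1) the differences were 2.93 for miR-451a and 2.41 for miR-144-3p (exact permutation p = 0.0476 and 0.0628, unadjusted). Apart from sham replicate 1, sham libraries held at most 252 CPM of miR-451a, and every pMCAO library held at least 619 CPM. Both miR-486 entries were near 0, with at most 2.53 CPM in any library.

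**Figure D4:**
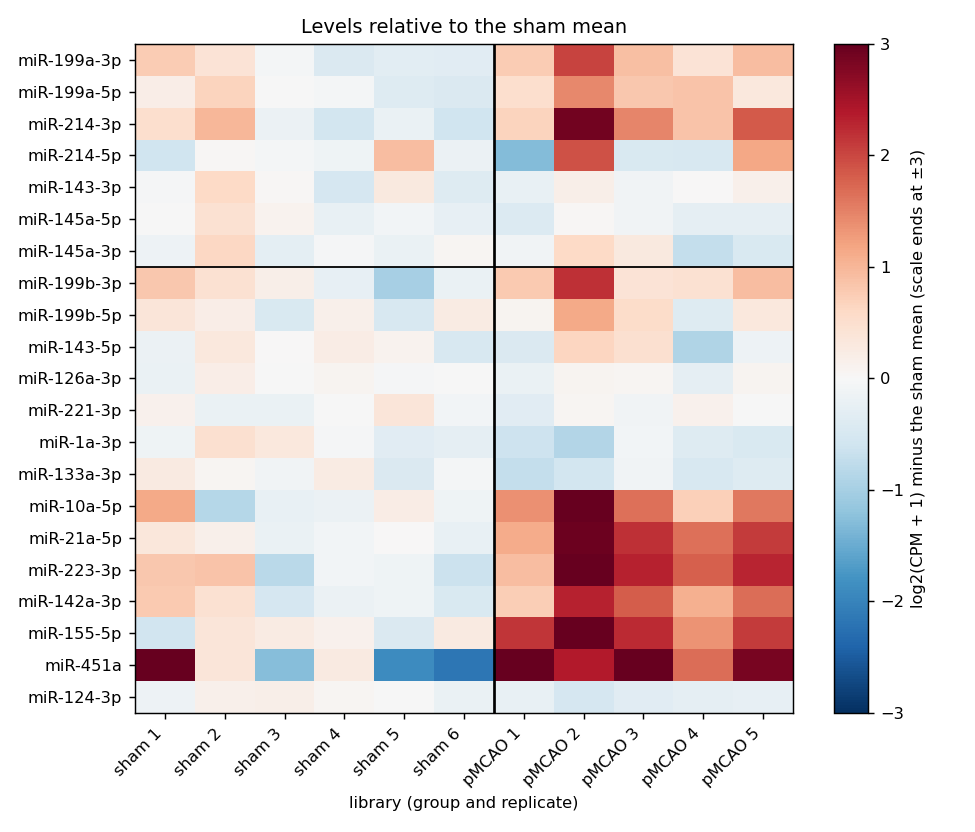
Level of each miRNA in each of the 11 libraries as log2(CPM + 1) minus the sham mean, with the members above the horizontal line and their relatives and miRNAs of the lists below it; the colour scale ends at ±3 and values beyond it are drawn in the end colours. pMCAO replicate 2 has the darkest red in miR-199a-3p, miR-214-3p and miR-223-3p, sham replicate 1 in miR-451a among sham libraries, and miR-143-3p, miR-145a-5p and miR-126a-3p stay pale throughout.

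Other vessel and connective tissue miRNAs moved unevenly. Of the 4 endothelial miRNAs (miR-126a-3p, miR-126a-5p, miR-221-3p and miR-222-3p) 0 were called by edgeR, with 0 at an unadjusted p under 0.05 and 0 by DESeq2, and their median log2 fold change was -0.05. Of 8 other mesenchymal and muscle miRNAs, 6 were tested and 1 was called, miR-10a-5p, a miRNA of the Hox clusters. It was at 10.9 ± 6.22 CPM in sham (SD, n = 6) and 43.9 ± 38.7 CPM in pMCAO tissue (SD, n = 5), a log2 fold change of 1.99 (SE 0.48, edgeR adjusted p = 0.0267), and its highest value, 112 CPM, was again in pMCAO replicate 2. The muscle miRNAs miR-1a-3p and miR-133a-3p had log2 fold changes of -0.49 and -0.45 (edgeR adjusted p = 0.109 and 0.0921), and miR-152-3p, miR-322-5p and miR-503-5p ones of 0.037, 0.38 and 0.44, none past the threshold. An unadjusted edgeR p under 0.05 was reached by 5 of the 6, all but miR-152-3p, some higher and some lower. With a higher level, 12.9% of all tested miRNAs reached it. miR-10b-5p and miR-206-3p did not pass the filter.

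Of 10 miRNAs linked to fibrosis in other organs, all were tested, 2 were higher past the threshold and 1 was lower. The higher ones were both arms of miR-21a, with log2 fold changes of 2.12 for miR-21a-5p and 2.09 for miR-21a-3p (edgeR adjusted p = 0.000395 and 0.00402). The lower one was miR-34a-5p, a target of p53, at -0.92 (edgeR adjusted p = 0.0412). The miR-29 members, which repress collagen mRNAs, had log2 fold changes of -0.19 for miR-29a-3p, -0.29 for miR-29b-3p and -0.12 for miR-29c-3p, none past the threshold (edgeR adjusted p = 0.537, 0.380 and 0.943).

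Of the lists for other brain cells, 0 of 5 neuronal miRNAs were called by edgeR, with 2 at an unadjusted p under 0.05 and 0 by DESeq2. For miR-124-3p all pMCAO libraries lay below all sham libraries, as for 3.34% of all tested miRNAs. Its fold was 0.80 (edgeR adjusted p = 0.0523), and for the others of this list the groups overlapped. Among 3 oligodendrocyte miRNAs 1 was lower, miR-338-3p at -0.54 (edgeR adjusted p = 0.0453). Of the 3 miRNAs of choroid plexus and barrier epithelium, a check for tissue from the brain's surface and ventricles, 2 were tested and 1 was lower, miR-184-3p at -0.95 (edgeR adjusted p = 0.0434). Each pMCAO library held between 6 and 15 counts of miR-184-3p, and DESeq2 called 0 of these 3 miRNAs. Their summed level was between 1378 and 2027 CPM in sham and between 979 and 1617 CPM in pMCAO libraries.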

How the data were processed

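Raw counts of 1907 mature miRNA names in 6 sham and 5 pMCAO libraries, grouped by their labels, were used. The authors made the deposited counts from Ion Torrent reads, kept at 20 to 30 bp, mapped to mm10 with Bowtie and counted on miRBase with HTSeq. How reads matching several loci were assigned is not given in the sources used here. Other assays of the study were not analysed here.

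miRNAs were filtered with filterByExpr (minimum count 10, minimum total 15) and scaled by TMM. They were tested with edgeR 4.0.16 (glmQLFit and glmQLFTest, no covariates, R 4.3.3) with Benjamini-Hochberg adjustment over all 479, a threshold of 0.05 and standard errors from the F statistic. Single levels (log2(CPM + 1)) and ratios (0.5 added to each count) were compared by exact two-sided permutation tests over 462 arrangements, with a smallest possible p of 0.00216. Fits were tested on simulated counts. In none of 25 within-group comparisons did 2 libraries agree within sampling noise (lowest chi-square over its degrees of freedom 18.0). The labels do not name separate animals, so p-values measure the spread between these libraries. Reads carry no molecular identifiers, so Poisson intervals cover counting error only. Intervals of edgeR folds rest on the standard errors of the fit and include the spread between libraries.

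The text names the 7 members, 4 related entries, the members of 8 further lists and the 5 miRNAs most like miR-199a-3p or miR-143-3p. Members and lists were chosen with earlier results of these data known, and the lists were written from general knowledge. Alternatives were RLE, upper-quartile and total-count scaling, DESeq2 1.42.0, a robust fit, no filter, a minimum of 10 counts in each library, a block for the replicate number, thinning to 744877 counts, summing miR-199a-3p and miR-199b-3p, other pseudocounts, and leaving out each library. Leaving out sham replicate 1 and pMCAO replicate 2 together was chosen after seeing the data.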

Additional observations from a re-analysis of the deposited data

Results flagged for a closer look

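Of 38 groups of values, 1 held a value separated from the rest of its group by more than Dixon's 95% limit allows, and 1.9 are due by chance. The log2 ratio of miR-199a-3p to miR-126a-3p was -6.36 in pMCAO replicate 2, while the next highest pMCAO library was at -7.35, a gap of 75.4% of the group's range.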

How the results depend on the processing

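The 34 calls over all miRNAs became 18 with at least 10 counts required in each library, 19 after thinning to the smallest total, 22 without sham replicate 1 and pMCAO replicate 2, and between 16 and 36 when 1 library was left out. Calls were 21 higher and 13 lower as reported, 43 and 1 with total counts, and 23 and 4 with upper-quartile scaling. Whether replicate numbers pair the samples was not settled. Same-numbered libraries correlated at -0.077 to 0.23, over 0.1 in 3 of 5 pairs. Other pairs of a sham and a pMCAO library ran from -0.25 to 0.23, over 0.1 in 6 of 25. With the replicate number as a block 22 miRNAs were called, miR-214-3p among them (edgeR adjusted p = 0.0168), and no call of a member changed. The SE of miR-214-3p was 0.28 with the block and 0.41 without it. miR-199a-3p passed the threshold with total counts (1.26), DESeq2 (1.06), the robust fit (1.06), no filter (1.03) and without both libraries (0.90). Over these and the other alternatives that kept all libraries or left out that pair, its adjusted p ran from 0.0207 to 0.125, and with 1 library left out from 0.0258 to 0.186. miR-199a-5p passed it with total counts (0.98), and with 1 library left out its adjusted p ran from 0.0380 to 0.249. miR-214-3p lost it without both libraries (1.28). The small values of miR-143-3p and miR-145a-3p turned positive with total counts (0.15 and 0.12), and that of miR-145a-3p also after thinning (0.11). With 1 library left out, log2 fold changes ran from 0.71 to 1.26 for miR-199a-3p, 0.59 to 0.98 for miR-199a-5p, 1.19 to 1.98 for miR-214-3p, -0.13 to 0.11 for miR-143-3p and -0.27 to 0.12 for miR-145a-3p. Differences in log2(CPM + 1) then ran from -0.26 to 0.54 for miR-214-5p, -0.10 to 0.12 for miR-143-3p and -0.25 to 0.079 for miR-145a-3p, and log2 ratios from 0.82 to 1.20 for miR-199a-3p to miR-143-3p, 0.86 to 1.28 for miR-199a-3p to miR-126a-3p and -0.070 to 0.13 for miR-143-3p to miR-126a-3p. miR-145a-5p stayed below 0 and uncalled in all alternatives run. Where a value moved, the cause was not tested. Totals of the groups do not overlap, so depth and group cannot be told apart.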
